A study of Drosophila melanogaster with 2 samples.

Results

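The genes described here encode the nuclear pore, proteins of the inner nuclear membrane and the soluble factors that carry cargo between nucleus and cytoplasm. They were chosen by name, as every gene called Nup followed by digits plus 20 named genes of the lamina, the Ran cycle and the transport receptors. The rule covers 41 genes, of which 36 were named by a probe set that names 1 gene, out of 10843 genes so named on the array. RNA of whole Drosophila melanogaster embryos had been hybridised to 2 Affymetrix arrays. The first genotype was yw, and the other was homozygous mutant for tdf, a transcription factor gene now called apontic (apt). Per the labels, embryos developed for 16 hours at 25 °C once the eggs were laid, and homozygotes were recognised with the GFP-marked balancer CyOact-GFP. Neither the tdf allele nor the egg collection window is stated, nor how many embryos an extract held. Since yw is another stock, stock and mutation cannot be told apart.

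The nuclear pore is a ring-shaped channel in the nuclear envelope built from many copies of proteins called nucleoporins. Small molecules diffuse through it, while larger cargo is carried by receptors of the importin and exportin family, whose loading is set by the GTPase Ran. Ran is loaded with GTP on chromatin and hydrolyses it in the cytoplasm, and this difference gives transport its direction. In the fly the egg is stocked with large amounts of maternal RNA and protein for pores and receptors, which serve the rapid nuclear divisions of the early embryo.

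Most of these genes had lower signals on the tdf-labelled array than on the yw array. The floor was set at a signal of 97.3, the 40th percentile of gene probe sets, and 35 of the 36 genes reached it on at least 1 array and count as measured. Log2 ratios of tdf over yw use the floor in place of any dimmer signal, and such a ratio is a bound. Of the 35, 12 were at least 2-fold lower and 0 were at least 2-fold higher. In the background of 7639 measured genes, 6.19% were at least 2-fold lower and 3.60% at least 2-fold higher. The log2 ratio was below 0 for 29 of the 35, against 47.6% of all measured genes. At 1.5-fold, 21 were lower and 3 higher, against 15.3% and 13.2% of all measured genes, and 2 were at least 4-fold lower, against 0.838%. Their median log2 ratio was -0.78, and that of all measured genes was 0.03. Each genotype has 1 array, so no difference here has a replicate check and no test was possible.

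The spread within the arrays can be described by probe sets that read the same gene. For 278 genes read by several probe sets that reached the floor on each array, the SD of the log2 ratio within a gene was 0.53. Of the 35 measured genes, 22 were lower by more than that SD, against 16.6% of all measured genes, and 3 were higher by more than it. Lower by more than 2 such SDs were 11, against 5.38% of all measured genes, and none was higher by that much. This SD describes the arrays and holds no variation between embryo collections. For the higher side no share of all measured genes was taken at these SDs. Among the 7639 measured genes ranked by log2 ratio, 17 of the 35 lay in the lowest 10%. In the highest 10% lay 3 of the 35, which is near that share.

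**Figure D1:**
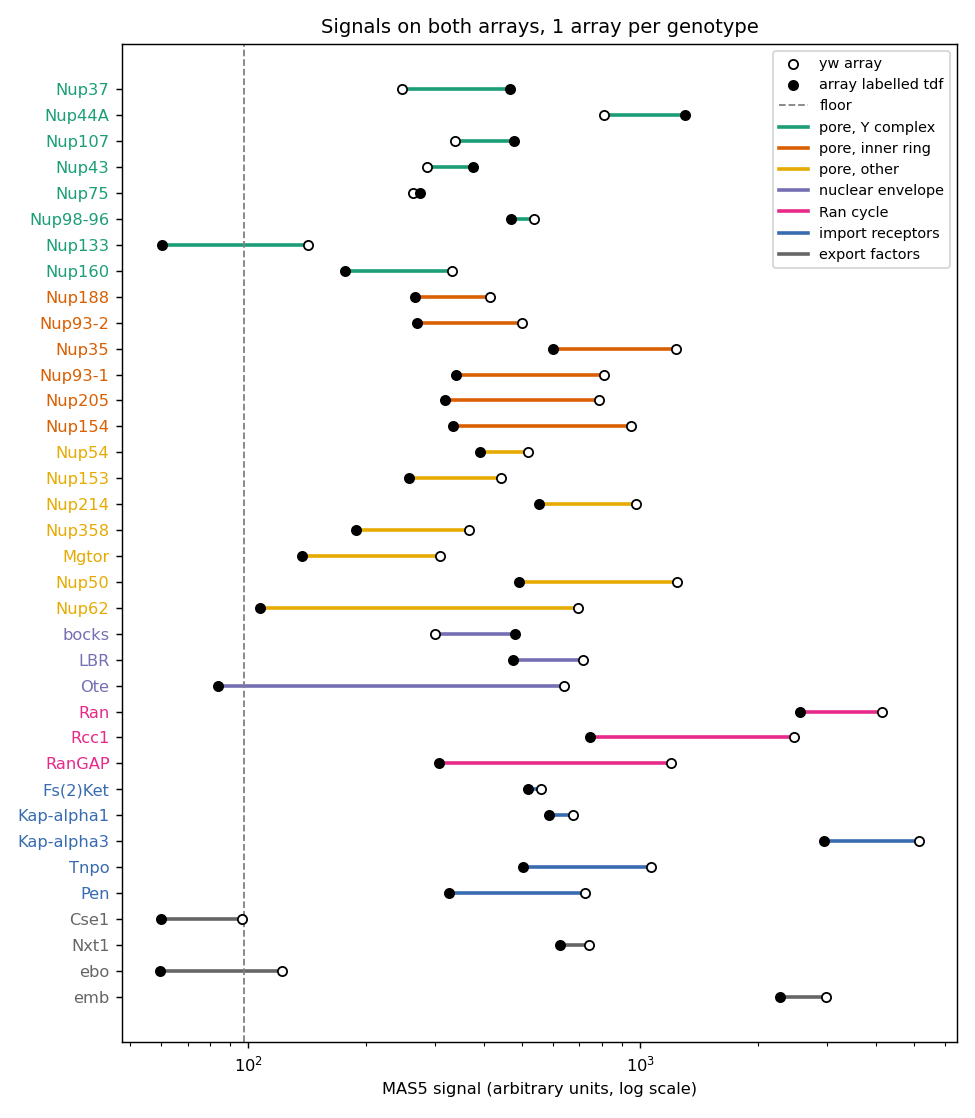
Signals of the 36 genes named on the array (MAS5 units, log axis) on the yw array (open circles) and the tdf-labelled array (filled circles), coloured by role, with the floor of 97.3 as a dashed line. A bar joins the 2 measurements of a gene and is no error bar. In the inner ring each filled circle lies left of its open circle, while 5 of the 8 Y complex genes in the rule lie the other way. Positions of different genes come from different probes and are not comparable.

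The inner ring of the pore, which anchors the scaffold to the membrane and lines the channel, had lower signals for all 6 of its genes. Nup154, a large inner ring protein, had signals of 947 (yw) and 333 (tdf), 2.84-fold lower, and pairs of signals are given in this order throughout. Nup205 had 787 and 319, 2.47-fold lower. Its partner Nup93-1, a linker of the ring, had 808 and 339, 2.38-fold lower. Nup35, which contacts the membrane, had 1235 and 600, 2.06-fold lower. These 4 genes were the ones at least 2-fold lower in the ring, against 6.19% of all measured genes. All 6 ring genes were lower by more than the SD within a gene, against 16.6% of all measured genes. The related gene Nup93-2 had 500 and 269, a log2 ratio of -0.89. It differed from that of Nup93-1 by 0.36, less than the SD within a gene. Nup188 had 415 and 266, a log2 ratio of -0.64, the smallest difference of the ring. The median log2 ratio of the 6 genes was -1.15.

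The Y complex, the outer scaffold of the pore, was divided. None of its 8 genes in the rule was at least 2-fold apart, with Nup133 known only as a bound. With 6.19% of all measured genes at least 2-fold lower and 3.60% higher, 0 of 8 is near the background. A ratio above 0 was seen for 5 of the 8, and the median log2 ratio was 0.23. This picture depends on the choice of genes. Sec13, which also serves in this complex, and Elys are outside the rule, and their log2 ratios were -0.16 and -1.12. The higher genes were led by Nup37, with 247 (yw) and 467 (tdf), 1.89-fold higher. Nup44A, the fly homologue of Seh1, had 808 and 1299, 1.61-fold higher. Nup107 had 337 and 478, a log2 ratio of 0.51. Nup43 had 285 and 376, a log2 ratio of 0.40. Of these higher genes only Nup37 and Nup44A exceeded the SD within a gene, and both were among the highest 10% of ratios. Lower by more than that SD were Nup160 and Nup133, against 16.6% of all measured genes. Nup75 differed little, with 264 and 275.

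The Y complex genes with lower signals were Nup160, Nup133 and Nup98-96. Nup160 had 330 and 177, 1.87-fold lower. Nup133 had 142 and 60.3, at least 1.46-fold lower, the second value being a sub-floor signal. With the floor at the 25th percentile its log2 ratio was -1.24. Nup98-96 is a gene whose product is cleaved into the mobile nucleoporin Nup98 and the scaffold protein Nup96. It had 537 and 467 on its brightest probe set, a log2 ratio of -0.20. A dimmer probe set of Nup98-96 gave 127 and 14.0, and the third was below the floor on both arrays. These dim probe sets cannot settle the size of the difference. Nup37 and Nup358 are next to each other in the gene order of chromosome arm 3R, with spans that do not overlap in the RefSeq table. Their log2 ratios, 0.92 and -0.96, lay 1.88 apart.

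Outside the Y complex, all 13 measured pore genes of the rule were lower on the tdf-labelled array, with a median log2 ratio of -1.04. Of these 13, 7 were at least 2-fold lower. Among all measured genes, 47.6% had a ratio below 0 and 6.19% were at least 2-fold lower. The most divergent of the 13 was Nup62, a protein of the central channel whose phenylalanine-glycine repeats form part of the permeability barrier. Its signals were 696 (yw) and 107 (tdf), 6.49-fold lower, and the second value is close to the floor. With the floor at the 60th percentile its log2 ratio was -1.55 or lower in place of -2.70. Nup54, which sits beside Nup62 in the channel, had 516 and 391, a log2 ratio of -0.40. The third channel gene, Nup58, was not named by a probe set. The log2 ratios of the measured channel genes lay far apart.

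On the nuclear side, the signals of the basket genes were all lower. Nup50, a mobile nucleoporin that helps to release importin alpha from its cargo, had 1245 and 491, 2.54-fold lower. Mgtor (Megator, formerly Mtor), the filament protein of the basket, had 308 and 137, 2.25-fold lower. With the floor at the 60th percentile its log2 ratio was -0.38 or lower in place of -1.17. Nup153, which anchors the basket to the pore, had 443 and 258, a log2 ratio of -0.78. On the cytoplasmic side, Nup358, which binds RanGAP and forms the filaments, had 366 and 188, a log2 ratio of -0.96. Nup214, which takes part in the last step of export, had 977 and 554, a log2 ratio of -0.82. Neither cytoplasmic gene reached 2-fold. With 6.19% of all measured genes at least 2-fold lower, 0 of 2 is near the background. The membrane nucleoporin gene Gp210 was not named by a probe set.

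**Figure D2:**
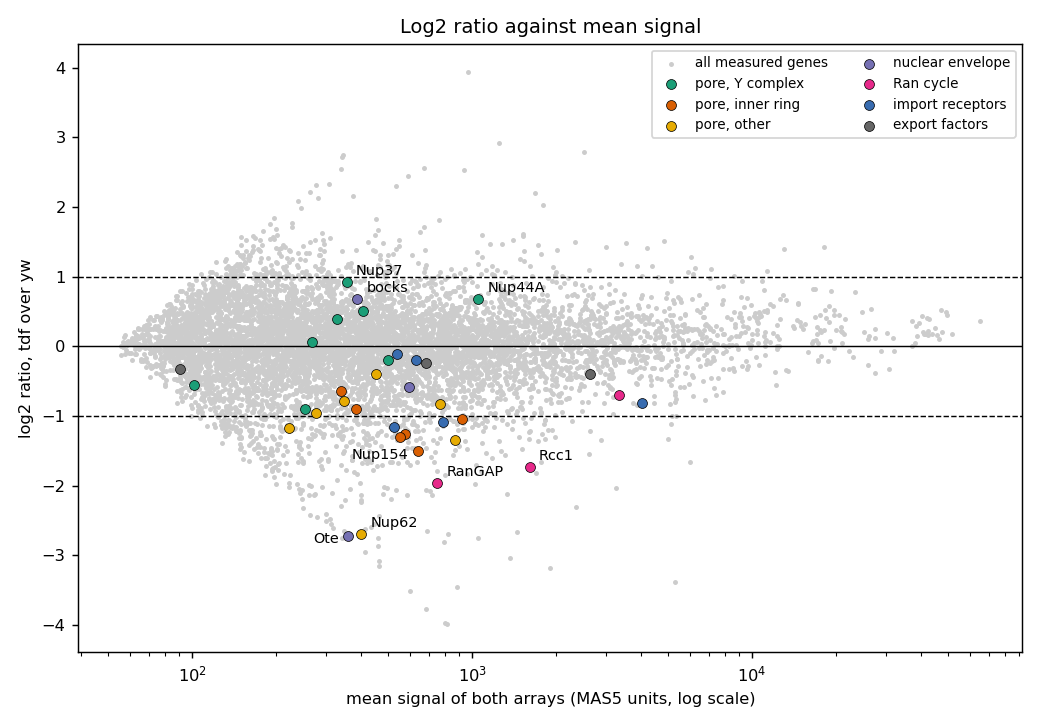
Log2 ratio of tdf over yw against the mean signal of both arrays (log axis) for all 7639 measured genes (grey) and the 35 measured genes of the nuclear pore, envelope and transport, coloured by role. Dashed lines mark 2-fold. The coloured points lie mostly below 0 at dim and bright signals alike, 12 of them on or below the lower dashed line and none above the upper one.

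Of the 5 genes of the lamina and inner nuclear membrane, Lam and LamC, which encode the fly B-type and A-type lamins, were not named by a probe set. The lamina itself is thus described by its membrane partners alone. Ote (Otefin), a LEM domain protein of the inner nuclear membrane needed in germline stem cells, had 639 (yw) and 83.6 (tdf). It was at least 6.57-fold lower, and with the floor at the 60th percentile the log2 ratio was -1.43 or lower. The lamin B receptor gene LBR had 715 and 475, a log2 ratio of -0.59. Another LEM domain gene, bocks (Bocksbeutel), had 300 and 478, 1.60-fold higher. Ote and bocks encode related proteins and lay far apart, the former at the 0.236 percentile of all measured genes and the latter at the 90.0 percentile. A further LEM domain gene outside the rule, MAN1, named after its values were seen, was lower as Ote was. It had 2317 and 1196, a log2 ratio of -0.95.

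All 3 genes of the Ran cycle had lower signals. Ran itself had 4146 and 2558, a log2 ratio of -0.70. RanGAP, which makes Ran hydrolyse its GTP in the cytoplasm, had 1198 and 307, 3.91-fold lower. Rcc1, the chromatin-bound factor that loads Ran with GTP, had 2475 and 744, 3.33-fold lower. The value of Rcc1 rests on a probe set whose name carries a suffix letter. Its plain probe set had 103 and 13.4, lower as well, but so near the floor that the bound is only -0.09. The log2 ratios of RanGAP and Rcc1, -1.97 and -1.73, were the lowest among the genes of the Ran cycle and the receptors.

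Of the 5 import receptors, 2 were at least 2-fold lower, against 6.19% of all measured genes. Pen, an importin alpha needed for gametogenesis, had 723 and 326, 2.22-fold lower. Kap-alpha3, another importin alpha, had 5165 and 2945, a log2 ratio of -0.81. Kap-alpha1, the third of these adaptors, had 674 and 586, a log2 ratio of -0.20. The log2 ratios of Pen and Kap-alpha1 lay 0.95 apart, against an SD of 0.75 for a difference of 2 ratios derived from the SD within a gene. The importin beta gene Fs(2)Ket, whose product carries the adaptors through the pore, had 558 and 517. Its log2 ratio was -0.11, and a second probe set gave 196 and 200. Tnpo (Transportin), an import receptor for RNA-binding proteins, had 1068 and 502, 2.13-fold lower. Its second probe set had 121 and 79.3.

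None of the 3 measured export factors was at least 2-fold lower, with ebo known only as a bound. With 6.19% of all measured genes at least 2-fold lower, 0 of 3 is near the background. The main exportin emb, the fly CRM1, had 2986 and 2277, a log2 ratio of -0.39. Its second probe set, at 134 and 103, gave -0.38. Nxt1, which pairs with the mRNA export receptor, had 739 and 626, a log2 ratio of -0.24. The gene ebo (Exportin 6), which exports actin, had 122 and 59.6, a log2 ratio of -0.32 or lower. With the floor at the 25th percentile its log2 ratio was -1.03. The differences of emb and Nxt1 were smaller than the SD within a gene, while that of ebo is known only as a bound. Cse1, which returns importin alpha to the cytoplasm, had 96.3 and 59.7 and was below the floor on both arrays. The mRNA export receptor gene sbr was not named by a probe set.

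A list of 40 further genes of pores, transport, mRNA export and the nuclear envelope was described in the same way. It was drawn up with earlier results of these data known, so its count is no independent support. Of its 31 measured genes, 9 were at least 2-fold lower and 0 at least 2-fold higher, with a median log2 ratio of -0.77. The background was again 6.19% and 3.60%, with a median of 0.03. The lowest was kuk (Kugelkern), a nuclear envelope protein that elongates blastoderm nuclei, with 2435 (yw) and 295 (tdf), 8.24-fold lower. Of its pore genes, Aladin was 3.07-fold lower and Elys, which seeds pore assembly on chromatin, 2.17-fold lower. The pore genes mbo, Rae1 and Ndc1, named after their values were seen, were under 2-fold apart, with log2 ratios of -0.34, -0.42 and -0.21. The mRNA export factor gene Gle1 had 493 and 201, 2.45-fold lower, and thoc5 of the THO complex 388 and 160, 2.42-fold lower. Among receptor genes, Ranbp16 was at least 2.31-fold lower and Ipo9 at least 2.11-fold lower. The receptor genes Impbeta11, msk, Karybeta3, Arts and Tnpo-SR, also named after their values were seen, were under 2-fold apart. Their log2 ratios were 0.72, 0.10, -0.27, -0.31 and -0.61. The Ran-binding protein gene RanBP3 was 2.15-fold lower. Torsin, an ATPase of the nuclear envelope and endoplasmic reticulum, was 2.14-fold lower. The gene of the list with the highest mean signal over both arrays, Sec13, whose product serves in the Y complex and in the coat of secretory vesicles, had 7652 and 6862, a log2 ratio of -0.16.

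**Figure D3:**
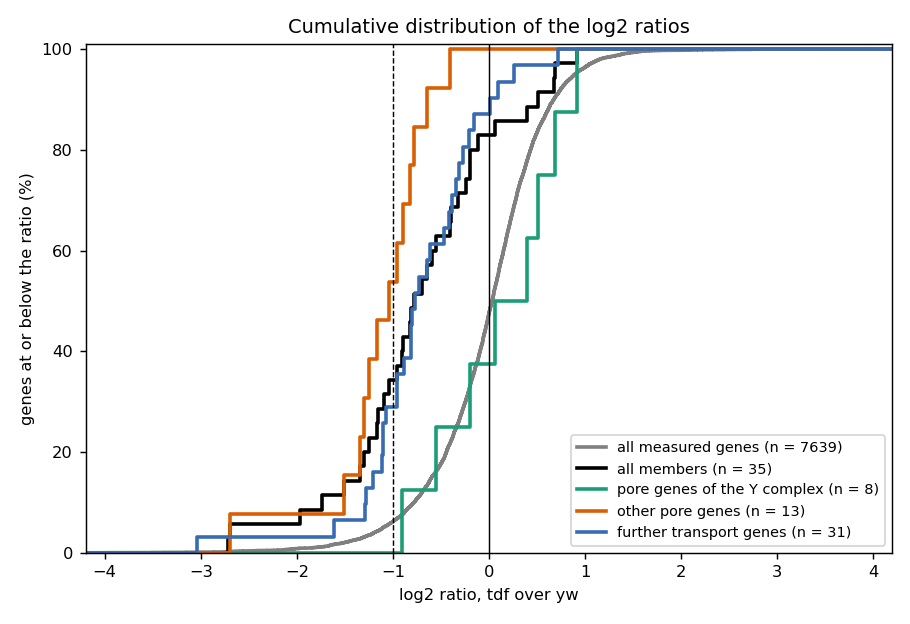
Share of genes (%) at or below each log2 ratio of tdf over yw. Lines stand for all 7639 measured genes (grey) and the 35 measured genes chosen by the rule (black). Of those 35, the 8 pore genes of the Y complex are green and the other 13 pore genes orange. The 31 further transport and envelope genes, Sec13 and Elys among them, are blue. The orange line is complete below a ratio of 0, whereas the green line lies mostly right of the grey one. The black and blue lines run close together, and both gene sets were chosen with earlier results of these data known.

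The 12 genes at least 2-fold lower lay on the X chromosome (3 of 6 measured), on 2L (3 of 7), on 2R (4 of 11) and on 3L (2 of 3). Among all measured genes of these arms the shares were 7.34%, 5.59%, 5.71% and 5.81%. On 3R, 0 of 8 were at least 2-fold lower, which is near the background of 6.40% of all measured genes of that arm. The 3R gene Nup133 is a bound, and with the floor at the 25th percentile it was at least 2-fold lower. Across the 35 genes, the log2 ratio and the log2 mean signal had a Pearson r of -0.10, and the log2 ratio and the log2 gene length an r of -0.09. These are descriptions over genes read on the same pair of arrays. Of the 19 genes whose mean signal was 500 or more, 9 were at least 2-fold lower, against 5.48% of all measured genes that bright.

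Other measurements moved with these signals. Maternal and germ line transcripts were listed with their earlier results known, and 12 of the 22 that were measured differed by 2-fold or more, each of them lower, against 6.19% lower and 3.60% higher of all measured genes. Because of that choice this count supports nothing by itself. Their signals summed over the 28 named genes came to 28389 (yw) and 9554 (tdf). The cyclin gene CycB, the brightest of them on the yw array, had 9664 and 928. Of the 22 measured ones, 20 had a ratio below 0 and 2 above 0. Those 2, named after their values were seen, were gcl with 3467 and 3941 and exu with 114 and 135. The pole cell and germ line genes osk, nanos, pgc, vas and piwi, and the maternal kinase gene png, were below the floor on both arrays. For the 6 poly(A) control probe sets that reached the floor on each array the log2 ratio had a median of -0.91, and for the 9 hybridisation controls it was -0.07. RNA quality, read as 3' over 5' signal, gave a larger value on the tdf-labelled array for actin (32.7 and 52.3), eIF-4a (45.5 and 56.6) and 18S rRNA (14.9 and 32.2), and lower for GAPDH (22.8 and 17.3). The part of the maternal transcripts, the controls or RNA quality in the ratios given here was not tested. In whole embryos, fewer cells that hold a transcript and less of it per cell cannot be told apart. The apt probe set read 979 and 1051, and it is not stated whether it falls inside the mutated part. Late embryonic tissue was present on each array, since the muscle myosin light chain gene Mlc2 read 40667 and 49018 and the pan-neuronal gene elav 252 and 228.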

How the data were processed

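The authors deposited linear intensities, a single value for each probe set on each array, computed with MAS5 according to the submitters' processing notes, which state neither version nor settings. Median signals over 14010 probe sets were 153 (yw) and 154 (tdf), and 59.2% and 60.8% of gene probe sets reached the floor. The number of arrays, 1 per genotype, limits the precision.

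Of 13966 gene probe sets, 12442 named 1 gene in the platform annotation, 327 several and 1197 none. Symbols were updated by gene ID to the RefSeq table of assembly Release 6 plus ISO1 MT. Where several probe sets named a gene, the brightest on average was used. Members, lists and the rule for named genes (every member, and of the further transport genes those at least 2-fold apart plus the brightest) were chosen with earlier results of these data known. The log2 ratio, the floor and the 2-fold limit are described with the results. The design allows no test. The steps were tested on simulated arrays. Scaling, floor, probe set and fold limit were varied. The tools were pandas 2.3.3 and numpy 2.4.6 under Python 3.11.15, with statsmodels 0.14.6 for loess, scipy 1.17.1 and, for figures, matplotlib 3.10.9.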

Additional observations from a re-analysis of the deposited data

How the results depend on the processing

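The scalings tried (median centring, quantile, loess with span 0.3), a floor at the 25th or at the 60th percentile, averaging of probe sets and use of plain probe sets alone left 11 to 14 of the genes 2-fold lower or more and 0 higher. The median ratio (log2) then lay between -0.82 and -0.64. No gene's ratio changed sign under these. For the 32 genes that reached the floor on each array it was -0.80. A limit of 1.5-fold took 21 lower and 3 higher genes, and a limit of 3-fold 4 lower and 0 higher, by construction. Of 243 ratios of single genes under these alternatives, 237 moved by less than the SD within a gene. The rest were Nup133 (-1.24 in place of -0.55) and ebo (-1.03) with the floor at the 25th percentile, Nup62, Ote and Mgtor with the floor at the 60th, and Rcc1 with plain probe sets only, where the median of the Ran cycle was -0.70 in place of -1.73. The count for brighter genes (mean signal 500 or more), chosen after the data were examined, was 9 lower and 0 higher. No paired analysis was possible because each genotype has 1 array. Bounds and ratios near the floor are limited by dim signal over background.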
